A study of Caenorhabditis elegans with 2 samples.

Results

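The genes described are 52 listed regulators of chromatin and transcription in Caenorhabditis elegans, examined for binding of the tagged protein C38D4.7 at their starts. They were taken by symbol from the WBcel235 annotation, which is the ce11 assembly of the files, and 51 of the 52 were matched among 19983 protein-coding genes. The exception, the remodelling gene swsn-8, had no entry under that symbol or synonym and was not analysed here. They were grouped as 18 DREAM and synMuv genes, 11 genes for histone methylation, 7 for acetylation, 8 for nucleosome remodelling and 8 for the RNA polymerase II machinery. The study was a ChIP-seq experiment, in which DNA bound by a protein is recovered with an antibody and sequenced, on C38D4.7, a protein that the annotation describes as having a C2H2-type domain. All samples came from the strain OP708, which carries the unc-119(tm4063) mutation and the insertion wgIs708, a transgene with C38D4.7 joined at its C-terminal end to TY1, EGFP and 3xFLAG and with a working unc-119(+). Whole late embryos of mixed sex, 4 hours old and staged by bleaching, were used, and chromatin was precipitated with an antibody against GFP. There was 1 group with 2 biological replicates, no second condition, and no list from untagged embryos was used here, so the values below are descriptions and no test was made.

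The listed genes act at several steps of one process. The DREAM complex, built around the retinoblastoma-like protein LIN-35 and an E2F-DP pair, represses cell-cycle and germline genes, and it overlaps with the synMuv genes, which were found through their joint effect on vulval development. Histone methyltransferases, acetyltransferases and the enzymes that remove these marks set the state of the nucleosomes, remodelling enzymes move them, and the polymerase II machinery begins and elongates transcripts.

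The deposited lists rank regions by a score that the authors assigned to each line, and a summit is the position of highest signal within a region. The optimal list, which the authors derived from the consistency of ranks between the replicates (the irreproducible discovery rate), held 649 lines, and these had the 649 highest scores among the 30000 pooled candidates. Replicate 1 had 30000 candidates and replicate 2 had 26661, and read depth is unknown because the lists hold no read counts. Each gene was given the best-ranked summit of each list inside a window that began 1000 bp before its start and ended 200 bp after it, with rank 1 as the highest score. Scores were used within a list only, and ranks from different lists are given side by side as positions in lists of unequal length.

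Of the 6 genes whose window held an optimal summit, 4 are shown by the sequence around that summit, because they carry, or in 1 case lack, the short motifs that were most frequent among the 6. The stretches are 101 bases long, run 5′ to 3′ on the strand of the gene with the summit as the middle base, and come from the RefSeq sequence of WBcel235. They lie at chrIII:13293103-13293203 on the minus strand for set-25, chrIII:9765549-9765649 on the plus strand for cbp-1, chrV:14524357-14524457 on the plus strand for hda-1 and chrIII:12874799-12874899 on the minus strand for mrg-1. None of the 4 overlapped the span of a protein-coding gene. Capitals mark CCGCAC or CGCACA, which overlap as CCGCACA, their reverse complements GTGCGG and TGTGCG, and, at hda-1 and mrg-1, CCGCCC and TTTGAA.
set-25: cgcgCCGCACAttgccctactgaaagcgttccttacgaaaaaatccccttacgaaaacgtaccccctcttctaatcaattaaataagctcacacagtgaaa
cbp-1: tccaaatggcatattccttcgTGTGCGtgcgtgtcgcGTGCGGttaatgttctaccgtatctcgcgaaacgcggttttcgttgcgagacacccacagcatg
hda-1: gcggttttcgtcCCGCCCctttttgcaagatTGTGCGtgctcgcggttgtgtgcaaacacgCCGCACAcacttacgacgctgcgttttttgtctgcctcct
mrg-1: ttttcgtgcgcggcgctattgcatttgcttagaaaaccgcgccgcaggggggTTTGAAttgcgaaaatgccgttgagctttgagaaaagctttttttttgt
set-25 held CCGCAC from 46 to 41 bases before the summit, and hda-1 held it from 11 to 16 bases after. cbp-1 held it on the opposite strand, from 13 to 8 bases before the summit, and mrg-1 did not hold it on either strand.

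Optimal summits lay at the starts of 6 of the 51 matched regulators (11.8%), against 385 of all 19983 protein-coding genes (1.93%). The 6 were lin-35 of the DREAM complex, the H3K9 methyltransferase gene set-25, the acetyltransferase gene cbp-1, the deacetylase gene hda-1, the chromodomain gene mrg-1 and the elongation kinase gene cdk-9. By class these were 1 of 18 DREAM and synMuv genes, 1 of 11 methylation genes, 3 of 7 acetylation genes, 0 of 7 remodelling genes and 1 of 8 polymerase II genes. Candidates of any rank in the pooled list lay at 39 of the 51 (76.5%), against 33.6% of all protein-coding genes. The median pooled rank of these 39 was 11419, beside 11454.5 over the 6716 protein-coding genes with a pooled candidate. In the replicate lists the medians lay nearer the top than those of all genes, at 7688 beside 11570 in replicate 1 and at 7009 beside 11201 in replicate 2. More of the regulators than of all genes thus had a candidate. The pooled median was close to that of all genes and the replicate medians were not. The regulators were listed with earlier results of these data known, so their shares are not those of an independent set. The 6 optimal summits had a median rank of 317, beside 328 over the 385 genes.

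**Figure D1:**
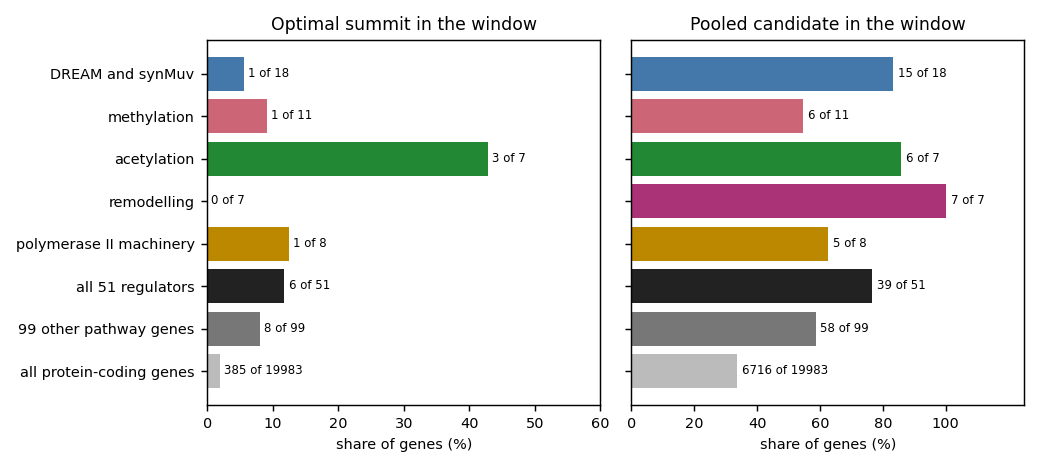
Share of genes (%, bars) with an optimal summit (left) or a pooled candidate (right) in the window around the start, by class of regulator, for all 51 regulators, for 99 other genes of the same pathways and for all 19983 protein-coding genes. Acetylation genes, counting the chromodomain gene mrg-1, had the highest share with an optimal summit (3 of 7) and remodelling genes the highest with a pooled candidate (7 of 7).

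In the DREAM complex, lin-35, the worm's pocket protein gene of the retinoblastoma family, ranked 203 in the pooled and optimal lists with a score of 364. It ranked 205 in replicate 1, with a score of 245, and 233 in replicate 2, with a score of 117. lin-35 was thus the highest-ranked regulator in the pooled list and in replicate 1, and it was high in both replicates. The gene lies at 5807709 to 5815637 on the plus strand of chromosome I, and its summit, 224 bp upstream at position 5807485, lay between the starts of lin-35 and the divergent gene vps-51. These starts are 418 bp apart, and the summit was 194 bp upstream of vps-51, the nearer of the 2. A weaker pooled summit lay 23 bp upstream of lin-35, at rank 2364. Its nearest counterparts ranked 3136 in replicate 2, 24 bp upstream, and 8944 in replicate 1, 12 bp past the start.

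The other 7 DREAM genes had pooled candidates but no optimal summit. All 8 DREAM genes thus had a pooled candidate, against 33.6% of all protein-coding genes. lin-54, which encodes the DNA-binding subunit, ranked 814 in the pooled list with a score of 166, 772 in replicate 1 and 2238 in replicate 2. Its summit, 346 bp upstream, was only 47 bp upstream of the divergent ribosomal protein gene rpl-12. lin-53, a histone-binding WD-repeat protein gene, ranked 1131, with 841 in replicate 1 and 4144 in replicate 2. Both genes thus stood among the regulators nearest to the optimal list without being in it. lin-52 ranked 4438, and the E2F gene efl-1, lin-9, the DP gene dpl-1 and lin-37 ranked from 10645 to 25167. efl-1, dpl-1 and lin-9 had no candidate in replicate 2.

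Of the 10 other synMuv genes, 7 had a pooled candidate (70.0%, against 33.6% of all protein-coding genes). The highest was lin-61, an MBT-repeat protein gene, at rank 6761, followed by the THAP-domain genes lin-36 at 7499 and lin-15B at 12304. lin-8, lin-15A, the zinc-finger gene lin-13 and lin-56 ranked from 22103 to 29886. The median over the 7 was 22103, beside 7541.5 over the 8 DREAM genes. The heterochromatin protein genes hpl-1 and hpl-2, and lin-65, had no pooled candidate. hpl-1 had a candidate at rank 29941 in replicate 1 only, hpl-2 at rank 22239 in replicate 2 only, and lin-65 had none in any list.

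Among the methylation genes, set-25, whose product trimethylates histone H3 at lysine K9, ranked 504 in the pooled and optimal lists with a score of 204. It ranked 697 in replicate 1, with a score of 122, and 452 in replicate 2, with a score of 79.1. Of the 6 genes with an optimal summit, it stood last in the pooled list and was the only one outside the first 649 lines of a replicate. set-25 lies at 13283824 to 13293090 on the minus strand of chromosome III, and its summit, 63 bp upstream, was in no other protein-coding gene's window.

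The H3K36 methyltransferase gene met-1 ranked 1295 in the pooled list with a score of 142, 3174 in replicate 1 and 946 in replicate 2. Its summit lay 121 bp inside the gene. set-16, of the MLL family, ranked 1821, with 1651 in replicate 1 and 3781 in replicate 2. The summit assigned to set-16, 648 bp upstream, lay inside the neighbouring gene drr-2, 302 bp past its start. All 3 demethylase genes had pooled candidates, against 33.6% of all protein-coding genes. They were lsd-1 at 3413, spr-5 at 18473 and the H3K27 demethylase gene utx-1 at 29987, and these ranks span most of the list. lsd-1 ranked 2501 in replicate 2 and 17347 in replicate 1. Of the 8 methyltransferase genes, 5 had no pooled candidate, namely met-2, set-2, set-17, set-26 and set-32. The other 3 (37.5%) had a pooled candidate, a share near the 33.6% of all protein-coding genes. met-2, which acts with set-25 on H3K9, was listed at rank 28723 in replicate 1 only, set-2, of the Set1 family, at 15078 in replicate 1 only and set-17 at 13104 in replicate 2 only. set-26 and set-32 had no candidate in any list.

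The acetylation class, in which the chromodomain gene mrg-1 was placed beside the enzyme genes, held 3 of the 6 optimal summits. These were at 1 acetyltransferase gene, 1 deacetylase gene and mrg-1, and only cbp-1 was kept when a summit counted for the nearest start alone. cbp-1, the CBP and p300 acetyltransferase gene, ranked 221 in the pooled and optimal lists with a score of 356. It ranked 240 in replicate 1, with a score of 222, and 197 in replicate 2, with a score of 130. Its summit fell on the same base in all 3 lists, 911 bp upstream of the start at position 9765599. cbp-1 lies at 9766510 to 9774825 on the plus strand of chromosome III, no other protein-coding gene's window held the summit, and the nearest noncoding genes, R10E11.12 and R10E11.10, were 451 and 490 bp away. Weaker pooled summits lay nearer the start of cbp-1, which had 3 pooled summits in its window.

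mrg-1, the worm's MRG15-like chromodomain gene, ranked 330 in the pooled and optimal lists with a score of 267. It ranked 297 in replicate 1, with a score of 192, and 408 in replicate 2, with a score of 82.7. mrg-1 lies at 12871029 to 12874656 on the minus strand of chromosome III, and its summit, 193 bp upstream, was 182 bp upstream of the divergent gene spcs-2, whose start was thus slightly nearer.

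hda-1, a class I histone deacetylase gene, ranked 425 in the pooled and optimal lists with a score of 228. It ranked 468 in replicate 1, with a score of 147, and 414 in replicate 2, with a score of 82.1. hda-1 lies at 14525389 to 14527411 on the plus strand of chromosome V. Its summit was 982 bp upstream, close to the edge of the window, inside the noncoding gene C53A5.18 and 286 bp upstream of ril-1, whose start was nearer. The related hda-2 and hda-3 ranked 11419 and 25684 in the pooled list, and hda-3 had no candidate in either replicate. Of the MYST-family acetyltransferase genes, mys-1 ranked 2320 in the pooled list, 2297 in replicate 1 and 7293 in replicate 2, and mys-2 had only a replicate 1 candidate at rank 10312.

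All 7 matched remodelling genes had a pooled candidate, against 33.6% of all protein-coding genes, and none had an optimal summit. With 1.93% of all genes called, an absence at 7 genes is uninformative about the class. Of 15 other remodelling genes, described below, 2 had an optimal summit. The highest of the 7 was mep-1, a zinc-finger partner of the Mi-2 remodelling enzymes, at rank 3778, with 6679 in replicate 1 and 1998 in replicate 2. The Mi-2 genes chd-3 and let-418 ranked 11758 and 23226, and lin-40, an MTA-type subunit gene of the NuRD complex, ranked 11643. swsn-1 and swsn-4, which encode core SWI/SNF subunits, ranked 11344 and 16155, and isw-1, the ISWI ATPase gene, ranked 17935. The median of the class was 11758, and replicate 2 held candidates at 5 of the 7, against 30.7% of all protein-coding genes. The class therefore had a candidate at every gene, with a pooled median rank near that of all genes.

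In the polymerase II machinery, cdk-9, the kinase gene of the elongation factor P-TEFb, ranked 304 in the pooled and optimal lists with a score of 280.4. It ranked 275 in replicate 1, with a score of 203, and 519 in replicate 2, with a score of 74. cdk-9 lies at 11323527 to 11333154 on the plus strand of chromosome I, and its summit was 170 bp upstream, between its start and that of the divergent gene hxk-2, 417 bp apart. The summit was nearer to cdk-9 than to hxk-2, which was 247 bp away. The cyclin T genes cit-1.1 and cit-1.2, whose products pair with CDK-9, are divergent from each other with starts 951 bp apart and shared 1 summit at pooled rank 14108.

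The TFIID subunit gene taf-4 ranked 1060 in the pooled list and 1001 in replicate 1, and 8922 in replicate 2. The TATA-binding protein gene tbp-1 ranked 23334. taf-1, the largest TFIID subunit gene, had no candidate in any list. ama-1, which encodes the largest subunit of polymerase II, and the TFIIH kinase gene cdk-7 had candidates in replicate 1 only, at ranks 24351 and 15228. The class thus ran from 1 high-ranked gene to 3 with no pooled candidate.

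**Figure D2:**
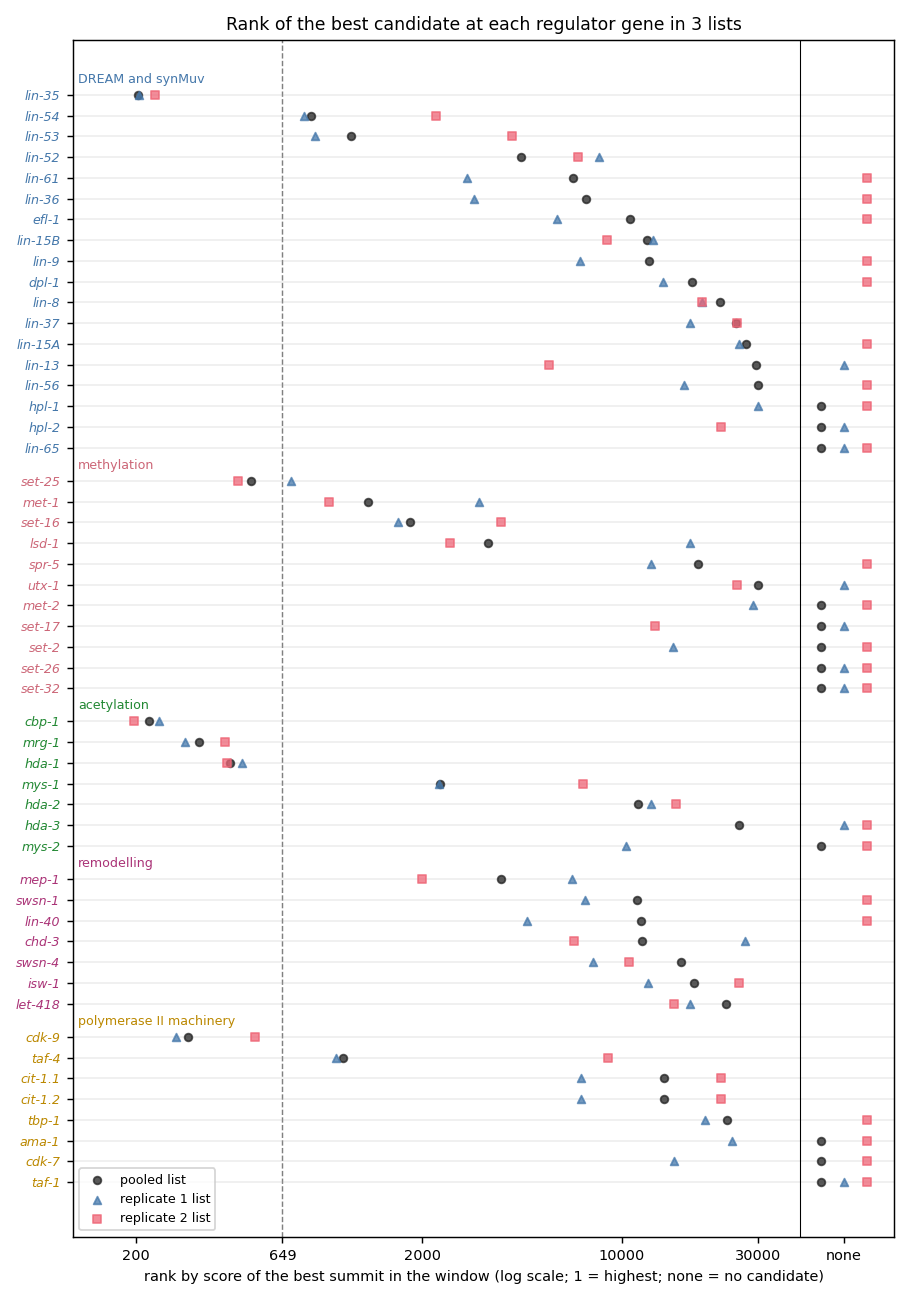
Rank of the best summit in the window of each of the 51 regulators (log axis, 1 is the highest score) in the pooled list and in both replicate lists, grouped by class; points right of the solid line have no candidate, and the dashed line is rank 649. The pooled ranks of 6 genes lie left of the dashed line, and only set-25 of these has a replicate rank to its right.

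The 6 genes with an optimal summit also ranked high in each replicate, the lowest being set-25 at 697 in replicate 1. The optimal lines have the highest scores of the pooled list, which was made from both replicates. High replicate ranks therefore follow in part from how the 6 were picked. Among the 649 highest-scoring lines of each replicate, replicate 1 had a summit at 5 regulators (9.80%, against 1.89% of all genes) and replicate 2 at 6 (11.8%, against 1.76%). lin-35, cbp-1, hda-1, mrg-1 and cdk-9 were in both sets (9.80%, against 1.33% of all genes). With 324 lines, replicate 1 kept 4 genes (0.956% of all genes) and replicate 2 kept lin-35 and cbp-1 (0.876% of all genes). With 1298 lines, replicate 1 had 9 genes (3.36% of all genes), adding set-25, lin-53, lin-54 and taf-4, and replicate 2 had 7 (2.92% of all genes), adding met-1.

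Candidates of any rank lay at 42 regulators in replicate 1 (82.4%, against 33.9% of all genes) and at 29 in replicate 2 (56.9%, against 30.7%). The 25 regulators with one in both replicates were 49.0% of the 51, against 20.0% of all genes. A further 17 were found in replicate 1 only (13.8% of all genes) and 4, lin-13, hpl-2, set-17 and utx-1, in replicate 2 only (10.6% of all genes), and 5 were found in neither. Of the 42 replicate 1 candidates, 39 lay within its first 26661 lines, the length of the replicate 2 list. Across the 25 shared genes Spearman's rho of the ranks was 0.74, given as a description of genes that share both libraries.

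**Figure D3:**
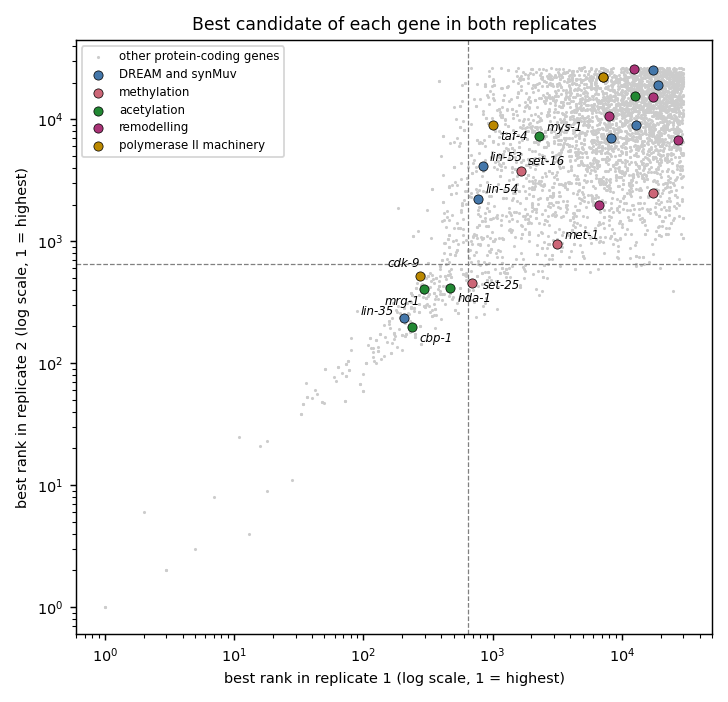
Best rank of each gene in replicate 1 and replicate 2 (log axes, 1 is the highest score) for the 25 regulators with a candidate in both (coloured by class) and for other protein-coding genes (grey); dashed lines are at rank 649. The 6 genes with an optimal summit lie together at ranks from 197 to 697, and lin-54, lin-53, taf-4 and met-1 lie within the first 1298 lines of 1 replicate only.

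The best summits of the replicates were 24 bp apart at lin-35, 0 bp at cbp-1, 10 bp at cdk-9, 46 bp at mrg-1, 21 bp at hda-1 and 47 bp at set-25. All 6 lay within 50 bp, with a median of 22.5 bp. Of the other 19 regulators with a candidate in both replicates, 3 had best summits within 50 bp of each other, and the median was 103 bp with a range up to 947 bp at lin-15B. Over all genes the median was 22 bp for the 381 with an optimal summit and a candidate in both replicates, of which 79.3% lay within 50 bp, and 98 bp for the other 3625. The 6 were thus near the value for genes with an optimal summit, a list that was itself drawn from agreement between the replicates.

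Best summits lay upstream of the start at 32 of the 39 regulators with a pooled candidate, and 7 (17.9%) lay at or past the start, beside 16.2% over all genes. The 6 optimal summits were all upstream, as were those of 373 of the 385 genes with an optimal summit. They formed a near set of 4, from 63 to 224 bp upstream at set-25, cdk-9, mrg-1 and lin-35, and a far pair, 911 and 982 bp upstream at cbp-1 and hda-1. The pooled median distance was 317 bp upstream for the regulators, with a signed value of -317, beside -313.5 for all genes. No optimal summit lay inside any of the 51 genes, although pooled candidates did. cbp-1 had 8 beyond its first 200 bp and cdk-9 had 7, the best of them at ranks 2084 and 1747. set-16 and taf-1, without an optimal summit, likewise had 8 and 7, and cit-1.2 had a candidate at rank 1395. These genes differ in length, from 3003 bp at cit-1.2 to 26167 bp at taf-1. No share over all genes is given. Neither these counts nor the absence of optimal summits inside the genes can therefore be read as particular to the regulators.

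**Figure D4:**
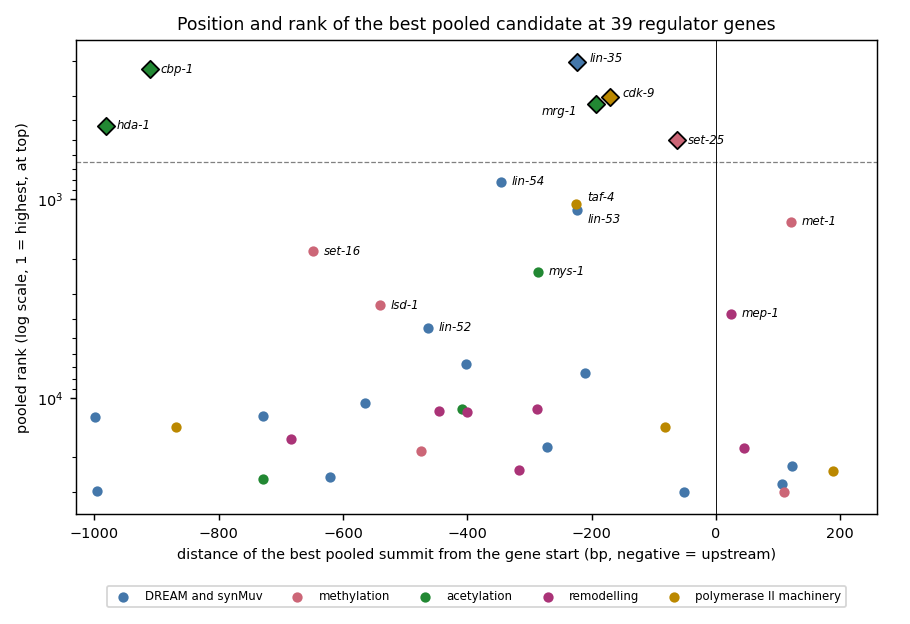
Distance of the best pooled summit from the gene start (bp, negative is upstream) against pooled rank (log axis, highest at the top) for 39 regulators; diamonds have an optimal summit and the dashed line is rank 649. The diamonds fall from 63 to 224 bp upstream, except cbp-1 and hda-1 at 911 and 982 bp.

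Several of these summits could belong to more than 1 gene. At lin-35, mrg-1, cdk-9 and hda-1 the optimal summit also lay in the window of another protein-coding gene (4 of 6, beside 51.7% of the 385 genes with an optimal summit). At lin-35, mrg-1 and hda-1 another gene's start was nearer (3 of 6, beside 27.8%). A divergent start within 1000 bp was present at 3 of the 6, at 13 of the 51 regulators (25.5%), at 40.8% of all genes with an optimal summit and at 17.5% of all protein-coding genes. Which gene of a pair a summit belongs to cannot be told apart from these lists. None of the 6 summits lay within 200 bp of a tRNA, snoRNA, snRNA or rRNA gene.

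A same-strand gene ended within 500 bp upstream of 12 regulators (23.5%, beside 18.1% of all genes), an arrangement seen in worm operons, and none of the 12 had an optimal summit. Of all 3607 genes with this arrangement, 54 had one, and 121 (3.35%) had one at the upstream gene. For 2 of the 12 regulators the upstream gene had one. fld-1, which ends 101 bp before mys-2, had a summit at rank 99, 916 bp upstream of its own start. swsn-7, a SWI/SNF subunit gene that ends 71 bp before hda-2, had one at rank 610, 635 bp upstream, with rank 505 in replicate 1 and 12642 in replicate 2. mys-2 itself had no pooled candidate, and hda-2 ranked 11419, the median of the 39 regulators with a pooled candidate. Whether a summit at the upstream gene bears on the downstream gene was not tested.

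**Figure D5:**
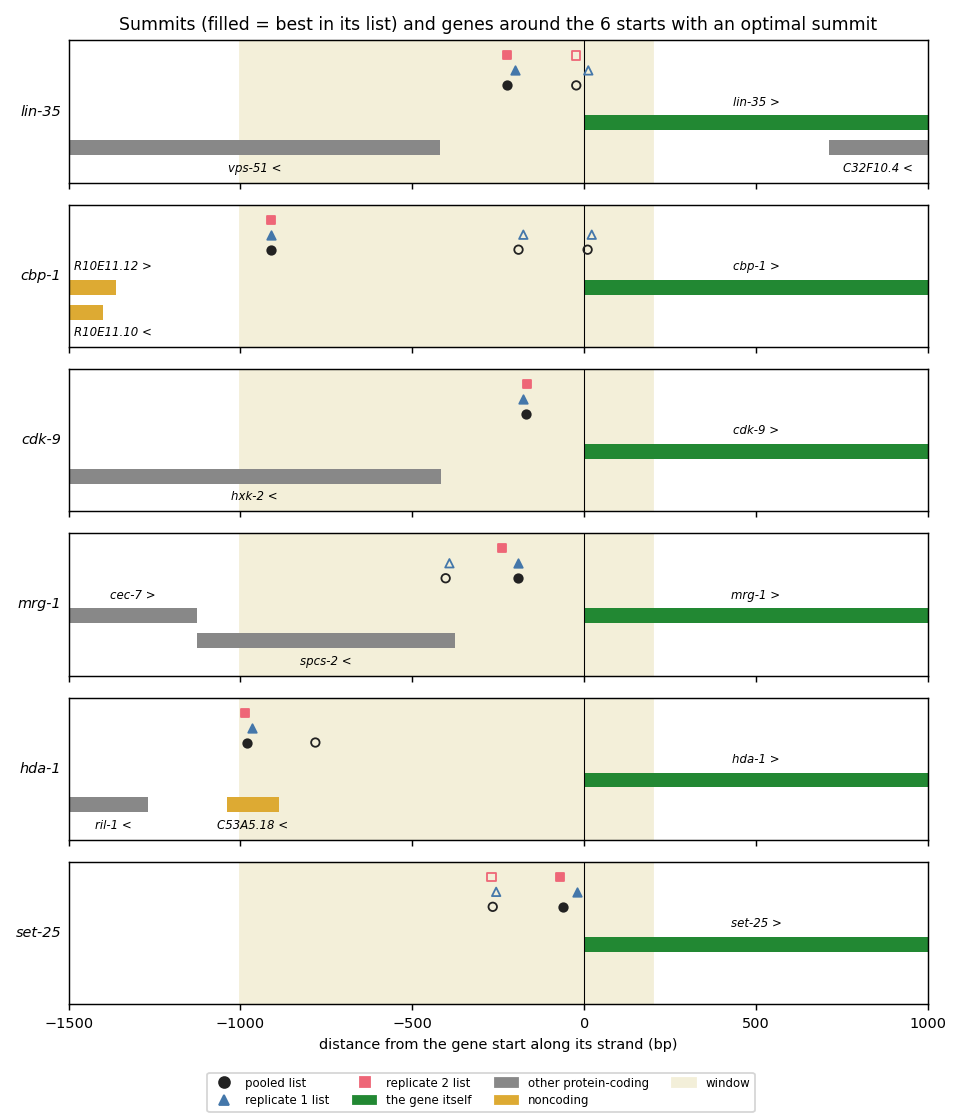
Summits and gene spans around the starts of the 6 regulators with an optimal summit, drawn along each gene's strand from 1500 bp upstream to 1000 bp downstream; filled symbols are the best summit in the pooled, replicate 1 and replicate 2 lists and open symbols weaker ones, and the shaded band is the window. The filled symbols of the 3 lists stack within 47 bp at every gene. At lin-35, cdk-9 and mrg-1 they lie between divergent starts, as they do at hda-1, whose start and that of ril-1 are more than 1000 bp apart.

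Within 50 bp of the optimal summit, CCGCAC or its reverse complement occurred at 4 of the 6 genes, set-25, cbp-1, hda-1 and cdk-9. It was present at 69 of the 629 nuclear optimal summits, at 18.2% of the 346 that lay away from small RNA genes, and at 2.40% of 29350 lower-ranked pooled summits. CGCACA, which shares 5 bases with it, occurred at the same 4 genes, beside 12.4% of nuclear optimal summits, 17.9% of those away from small RNA genes and 3.18% of lower-ranked summits. At set-25, hda-1 and cdk-9 the matches overlapped in 1 run, as printed above for set-25 and hda-1, and at cbp-1 they were separate. Neither lin-35 nor mrg-1 held CCGCAC within 100 bp. CCGCCC occurred at hda-1 alone (15.6% of summits away from small RNA genes) and TTTGAA at mrg-1 alone (17.1%). GTTCGA and CGAACC, letters found at 19.1% and 16.5% of nuclear optimal summits, and GCGGGAA, found at 1.91%, occurred at none of the 6. Over the 346 summits away from small RNA genes, where all 6 belong, the shares of these 3 were 3.18%, 2.31% and 2.60%.

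Among the 33 regulators with a pooled candidate only, CCGCAC occurred at mys-1 and CGCACA at lin-53 and met-1. These were 3.12% and 6.25% of the 32 distinct summits of these regulators, beside 2.40% and 3.18% of lower-ranked summits. TTTGAA occurred at 14 of the 33, or 43.8% of their 32 distinct summits, beside 20.8% of lower-ranked summits. GC content of the 101-base windows ran from 34.7% at lin-35 and 39.6% at cdk-9 through 44.6% at set-25, 46.5% at mrg-1 and 53.5% at cbp-1 to 56.4% at hda-1. The median was 50.5% over nuclear optimal summits, 48.5% over those away from small RNA genes and 40.6% over lower-ranked summits. The 2 lowest of the 6 were thus below the lower-ranked median. The 4 genes with CCGCAC had from 39.6% to 56.4% and the others 34.7% and 46.5%, and the part of base composition in the motif counts was not tested.

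A list of 100 other genes from the same pathways, likewise chosen with earlier results of these data known, was examined in the same way. Of its 99 matched genes, 8 had an optimal summit (8.08%, against 1.93% of all genes) and 58 a pooled candidate (58.6%, against 33.6%). The 8 were 0 of 13 DREAM and synMuv genes, 1 of 22 methylation genes, 1 of 14 acetylation genes, 2 of 15 remodelling genes and 4 of 35 polymerase II genes. The 6 highest were swsn-3 at rank 164, the Mediator subunit genes mdt-6 at 343 and mdt-8 at 375, the polymerase II subunit gene rpb-11 at 429, epc-1, whose homologues act with MYST acetyltransferases, at 470 and the demethylase gene jmjd-1.2 at 556. swsn-3 ranked 174 in replicate 1 and 172 in replicate 2, above every one of the 51 regulators in both lists. mdt-6 ranked 296 in replicate 1 and 533 in replicate 2, rpb-11 ranked 407 and 703, epc-1 ranked 451 and 532, and jmjd-1.2 ranked 562 and 1292. mdt-8 ranked 392 in replicate 2 and 24923 in replicate 1, where no summit near the pooled one, 984 bp upstream, lay inside its window. Together with the listed genes, swsn-3 and swsn-7 were the only remodelling genes examined with an optimal summit.

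The count of 6 depended on how a summit was assigned. It stayed at 6 with a window from 2000 bp upstream to 500 bp downstream (2.70% of all genes), with the start of any annotated transcript (2.06%), with any overlap of region and window (2.16%) and after removing summits near small RNA genes (1.55%). A window from 500 bp upstream to 100 bp downstream gave 4 (1.36%), without cbp-1 and hda-1. Counting only the gene with the nearest start gave 3, set-25, cbp-1 and cdk-9 (1.40%). The 324 highest-scoring optimal lines gave 3, lin-35, cbp-1 and cdk-9 (0.951%). cdk-9 was kept in all of these settings and cbp-1 in all but the narrow window, and no regulator was gained in any.

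The pooled count of 39 became 24 with the narrow window (47.1%, against 21.4% of all genes) and 43 with the wide one (84.3%, against 49.7%). It was 39 with any transcript start (36.5% of all genes), 42 with any overlap of region and window (40.6%) and 32 with the nearest start only (62.7%, against 28.2%). In each setting a larger share of the regulators than of all genes had a candidate.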

How the data were processed

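Peaks of C38D4.7 were mapped by ChIP-seq in 2 biological replicates of late embryos. Regions were called by the authors in each replicate and in pooled alignments against 1 control alignment, and optimal peaks were derived by the irreproducible discovery rate, per the deposited read-me files. Which caller, aligner and threshold served is not stated in them or in the labels. Column 7 of the deposited lists holds the authors' score, whose scaling is not stated and which served only for ranking within a list. Read depth is unknown, so no counting interval could be given. Summits were the region start plus the deposited offset. Gene starts and sequence came from RefSeq WBcel235, whose chromosome lengths held every region. Python 3.11.15, pandas 2.3.3 and numpy 2.4.6 were used, and the window search was checked on planted summits.

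The members, classes and pathway lists were chosen with earlier results of these data known. Every regulator with an optimal summit, or among the 649 highest-scoring lines of a replicate, was named with its values in every list, as were the best gene of each class, those with no pooled candidate and the 6 highest other pathway genes; swsn-7, lin-53 and lin-54 and other genes named beyond this were chosen after their values were seen. Alternatives were other windows, starts, overlap rules, assignments, list lengths, motif windows and leaving out each replicate. With 1 group and no counts, no test was made. No control list was used here.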

Additional observations from a re-analysis of the deposited data

How the results depend on the processing

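Leaving out a replicate, by taking the 649 highest-scoring lines of the other, gave 5 to 6 regulators and 0 to 1 methylation genes, since set-25 was lost without replicate 2. Regulators with an optimal summit fell from 6 to 3 both when a summit counted only for the nearest start and with the 324 highest-scoring optimal lines. With these 324 lines the methylation genes had 0 and the acetylation genes 1 in place of 3. The window from 500 bp upstream to 100 bp downstream also left 1 acetylation gene and reduced pooled candidates from 39 to 24, with a median rank of 8022 in place of 11419, beside 11392 over all genes. With the wide window the median was 11419, beside 10850 over all genes. The median rank was 7688 in the replicate 1 list (all genes 11570) and 7009 in the replicate 2 list (all genes 11201). With 1298 lines replicate 1 had 9 regulators in place of 5, and with 324 lines replicate 2 had 2 in place of 6. Within 25 bp of the summit CGCACA occurred at 2 genes and CCGCCC at 0, and within 100 bp CCGCCC occurred at 2 and TTTGAA at 2. Of 115 values recomputed, 90 were called the same, 16 moved and 9, all calls at single genes, became weaker. The same meant within 1.5 times the reported count or on the same side of the call. For the median rank it meant within the SD of both replicates' medians, 480.1 ranks. The 115 include calls at each of the 6 genes, which repeat the counts, and counts of 0 that stayed at 0. No paired analysis was possible because there is 1 group and no test. With no read counts, the lists do not show how depth limits the weak candidates, and absence from a list says only that no summit was listed in that window.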
